A study of Homo sapiens with 6 samples.

Results

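The nuclear genes of mitochondrial respiratory complexes I to IV were followed in PC-9 lung adenocarcinoma cells after knockdown (KD) of the splicing factor RBM10. Members were the gene symbols that begin with NDUFA, NDUFB, NDUFC, NDUFS or NDUFV and a number, SDHA to SDHD, UQCR and its suffixes, or COX4 to COX8 with their suffixes. This rule gave 68 of the 26334 gene symbols in the files, with 126 of the 51398 RefSeq isoforms: 36 genes of complex I, 4 of complex II, 10 of complex III and 18 of complex IV. PC-9 is an established line with an EGFR exon 19 deletion, and all cells were grown without drug in RPMI with serum. The 6 RNA-Seq libraries comprised 2 of cells with a scrambled control shRNA (shScr), 2 of cells with shRBM10#1 and 2 of cells with shRBM10#2, so that every group carried an shRNA. No label says whether the 2 libraries of a group came from separate cultures, so the p-values measure the spread between these libraries, which may be technical. The comparison asks whether loss of RBM10 moved the messages of the respiratory chain, one complex at a time.

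Complex I (NADH dehydrogenase) and complex II (succinate dehydrogenase) pass electrons to ubiquinone, complex III (cytochrome bc1) passes them on to cytochrome c, and complex IV (cytochrome c oxidase) gives them to oxygen. Complexes I, III and IV pump protons as they do so, and ATP synthase uses the resulting gradient. The catalytic centers of complexes I, III and IV are built in part from subunits encoded in mitochondrial DNA, whereas the members here are nuclear genes whose proteins are imported. The deposited tables held 0 genes from the mitochondrially encoded subunit list, so only the nuclear side was measured.

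RBM10 itself was at 38.5 and 45.7 TPM (transcripts scaled to a fixed total per library) in the shScr libraries, at 28.4 and 25.8 with shRBM10#1, and at 13.1 and 12.8 with shRBM10#2. The 3 pairs did not overlap. RBM10 fell by 0.54 on the log2 scale with shRBM10#1 (SE 0.07, n = 2 against 2, FDR = 0.000228) and fell by 1.65 with shRBM10#2 (SE 0.07, FDR = 5.1e-08), leaving 68.6% and 31.9% of the shScr level in edgeR's quasi-likelihood test with Benjamini-Hochberg adjustment. Libraries held 31953729 to 37557507 expected counts. The 8 epithelial markers were above 0 in all 6 libraries and summed to 26575.86 and 28348.31 TPM in shScr, 29943.02 and 27507.04 in the shRBM10#1 libraries, then 23751.88 and 24601.81 TPM in the shRBM10#2 libraries, which were lowest. KRT19, a keratin, rose by 0.28 on the log2 scale with shRBM10#1 (FDR = 0.012 in edgeR), which became 0.23 and lost its call without shScr replicate 2. With shRBM10#2 KRT19 fell by 0.28 (FDR = 0.00842 in edgeR). EPCAM went the other way with shRBM10#2, a rise of 0.24 (FDR = 0.018 in edgeR), which became 0.21 and lost its call without shScr replicate 2. The other 6 epithelial markers were not called with shRBM10#2. The part of the epithelial markers in the members' values was not tested. The 13 markers of fibroblast, endothelial and blood cells summed to 9.74 to 10.88 TPM in shScr, 13.48 to 15.42 TPM with shRBM10#1 and 10.38 to 10.39 TPM with shRBM10#2, with HBB at 0 throughout and 3 to 6 of the 13 at 0 in a library. CDH5, an endothelial cadherin, gave 4.65 to 10.9 TPM of these sums, and its part in the members' values was not tested. In bulk RNA, fewer cells of a kind and less RNA per cell cannot be told apart.

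One shScr library stood apart for the members. In shScr replicate 2 the members took 0.657% of the counts, against 0.709% to 0.796% in the other 5 libraries. Relative to each gene's mean over the 6 libraries, the median member of shScr replicate 2 lay at -0.155 on the log2 scale and 8 of 62 members lay above their own mean, whereas in the other libraries the medians ran from -0.01 to 0.06 and 28 to 46 members lay above it. The median gap between the shScr replicates was 0.15 over the members and -0.00196 over all genes, larger than the median member change with either shRNA given below. The same library had a shorter difference between transcript length and effective length, 230.2 nt against 263.8 to 280.2 nt, a value set by the fragment lengths that RSEM used. Across the 62 members the shScr gap had a Spearman correlation of -0.151 with log2 transcript length, and across all 14217 genes tested of -0.353 (genes of the same libraries, not independent replicates). The part of fragment length in the members' changes was not tested beyond a fit with effective length as an offset, and changes against shScr that lost their call or moved markedly without shScr replicate 2 are given with that value.

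**Figure D1:**
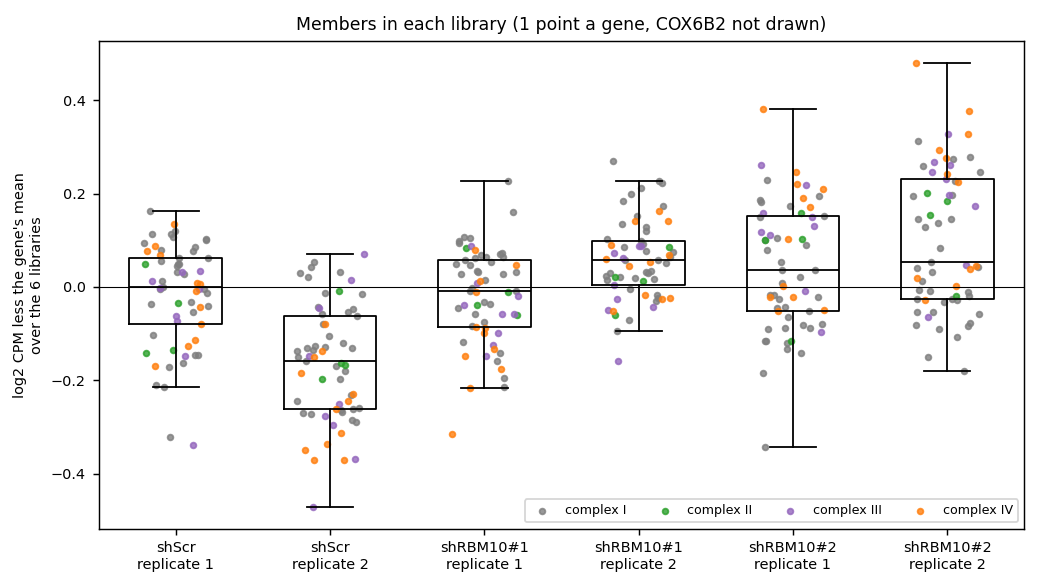
Log2 CPM (counts scaled to library size) of each member less that gene's mean over the 6 libraries, 1 point a gene colored by complex, with box plots (median, quartiles, whiskers to 1.5 times the quartile range) of the 61 members other than COX6B2 per library. The shScr replicate 2 box lies lowest, and the shRBM10#2 boxes reach highest, with complex IV genes at their upper edge.

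At baseline the members were abundant. The 62 members that passed the filter on low counts had a median of 184.6 TPM in shScr, against 12.25 TPM over all genes tested, and their transcripts were short (median length 818.5 nt against 2904 nt). Complex IV had the highest median, 656.1 TPM, followed by complex I with 181.2 TPM, complex III with 152.4 TPM and complex II with 100.4 TPM. Subunits of one complex differed widely in message level. In complex I, NDUFS5, an accessory subunit, reached 1040 and 908 TPM in the shScr libraries and NDUFA3 1138 and 796 TPM, whereas NDUFV3 was at 22.2 and 20.3 TPM and NDUFA5 at 10.7 and 13.2 TPM. The shScr values of NDUFS5 and NDUFA3 overlapped, whereas NDUFV3 and NDUFA5 were separate.

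In complex II, SDHA, the flavoprotein that oxidizes succinate, was highest at 181 and 198 TPM, then SDHB, the iron-sulfur subunit, at 104 and 102 TPM, while the membrane anchors SDHD (93.5 and 103 TPM) and SDHC (55.4 and 62.0 TPM) were lowest, SDHB and SDHD overlapping. In complex III, the hinge protein gene UQCRH stood at 1134 and 1096 TPM, above the core protein UQCRC1 at 226 and 257 TPM, with UQCRB at 47.1 and 44.5 TPM and the intronless copy UQCRHL at 11.0 and 15.2 TPM. Complex IV ran from COX8A (1989 and 1441 TPM) and COX7C (1948 and 1368 TPM), which overlapped, down to NDUFA4 (74.9 and 68.9 TPM), a complex IV subunit that carries a complex I name, and COX6B2 (1.87 and 1.19 TPM), the testis-type form of COX6B. In NDUFS5, NDUFA3, COX8A and COX7C, shScr replicate 2 was the lowest of the 6 libraries.

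**Figure D2:**
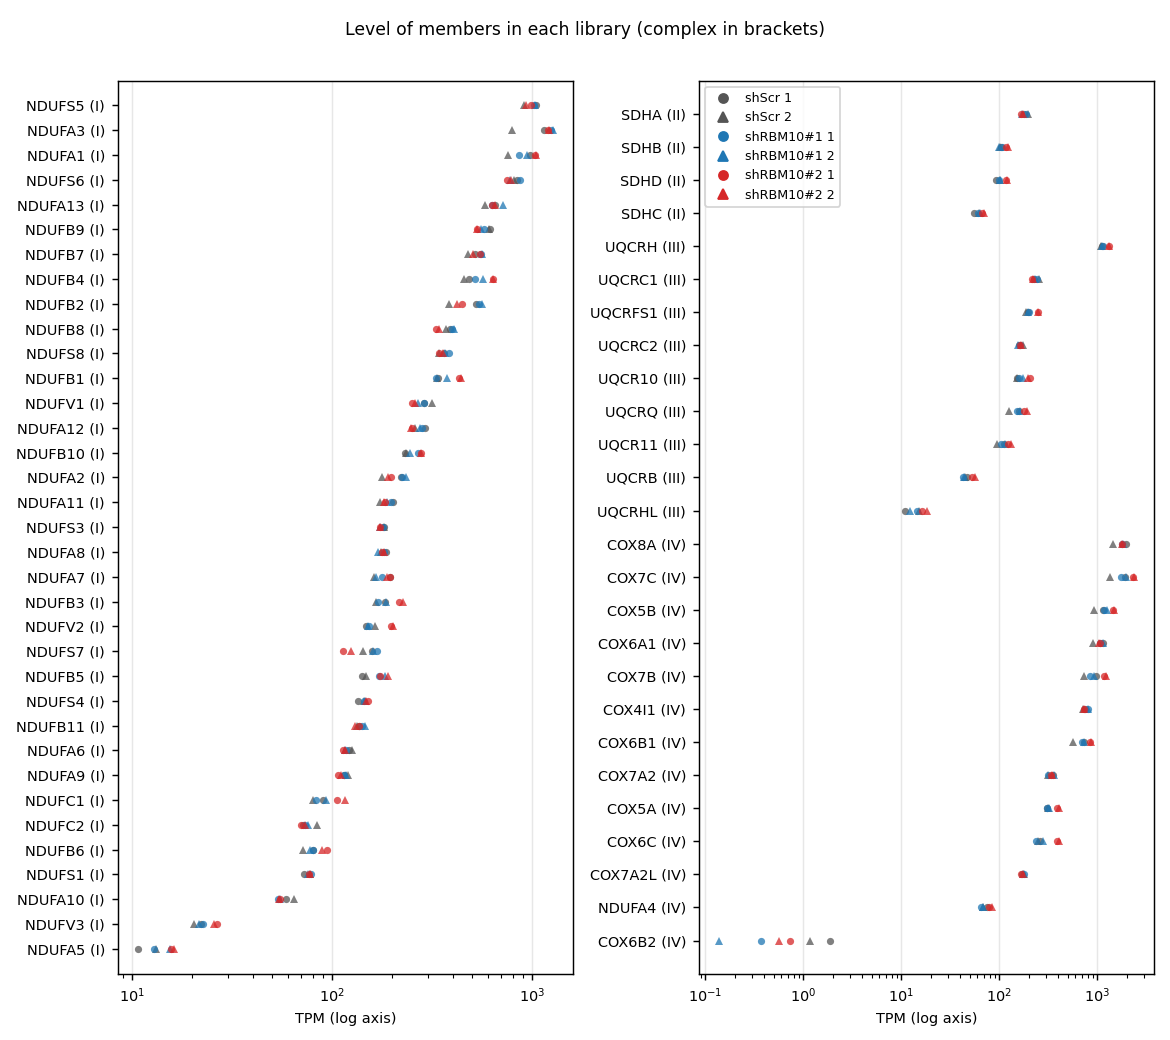
TPM of the members that passed the filter (1 is not drawn) in each of the 6 libraries, on a log axis, ordered within each complex by mean shScr TPM (circles replicate 1, triangles replicate 2). Mean shScr levels span from 1.53 TPM (COX6B2) to 1715 TPM (COX8A), and the 3 conditions lie close together relative to that span.

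Summed over its members, complex IV held 9887 and 7797 TPM in shScr, 9288 and 9952 with shRBM10#1, then 10811 and 10946 TPM in the shRBM10#2 libraries. Complex III held 2204 and 2150, 2250 and 2236, and 2522 and 2564 TPM in the same order. Both sums were higher in each shRBM10#2 library than in any other library. Complex II (433 and 464, 456 and 439, and 468 and 488 TPM) was also highest with shRBM10#2, by a gap smaller than its shScr spread. Complex I held 11282 and 10129, 11361 and 11523, and 11280 and 11325 TPM, so that both shRBM10#2 libraries fell within the range of the others. As ratios of condition means to shScr, complex IV was 1.23 and complex III 1.17 with shRBM10#2 (SD in shScr 1478 and 37.9 TPM, n = 2), against 1.09 and 1.03 with shRBM10#1. The complex IV ratios rest in part on shScr replicate 2, the lowest library at 7797 TPM. Against shScr replicate 1 (9887 TPM), 1 shRBM10#1 library was lower (9288) and 1 higher (9952), while both shRBM10#2 libraries were higher.

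With shRBM10#2, 25 members rose and 4 fell against shScr at FDR below 0.05 (edgeR's quasi-likelihood test, n = 2 against 2), and 33 did not pass. That is 40.3% of the members higher against 12.0% of all genes tested, and 6.45% lower against 13.9%. Counting both directions, 25.9% of the 14217 genes were called. The median member change was 0.11 on the log2 scale against 0.01 over all genes. The members are far more abundant than the average gene, and their share was not compared with that of genes of like abundance. Changes were modest in size, the called rises running from 0.25 to 0.69 on the log2 scale. Without shScr replicate 2 there were 15 rises and 2 falls (24.2% higher against 7.28% of all genes) with a median of 0.06. Leaving out shRBM10#2 replicate 1 left 14 members called (22.6% against 8.21% of all genes), and leaving out shRBM10#2 replicate 2 left 9 (14.5% against 6.79%). With effective transcript length as an offset 24 members were called, all of them higher (38.7% against 10.3% of all genes).

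By complex, the rises with shRBM10#2 were 10 of 36 genes in complex I (median 0.03), 3 of 4 in complex II (0.27), 6 of 9 tested in complex III (0.34) and 6 of 13 tested in complex IV (0.24). Without shScr replicate 2 these became 6, 2, 2 and 5 genes, with medians of -0.04, 0.23, 0.20 and 0.10. Differences between complexes were not tested.

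**Figure D3:**
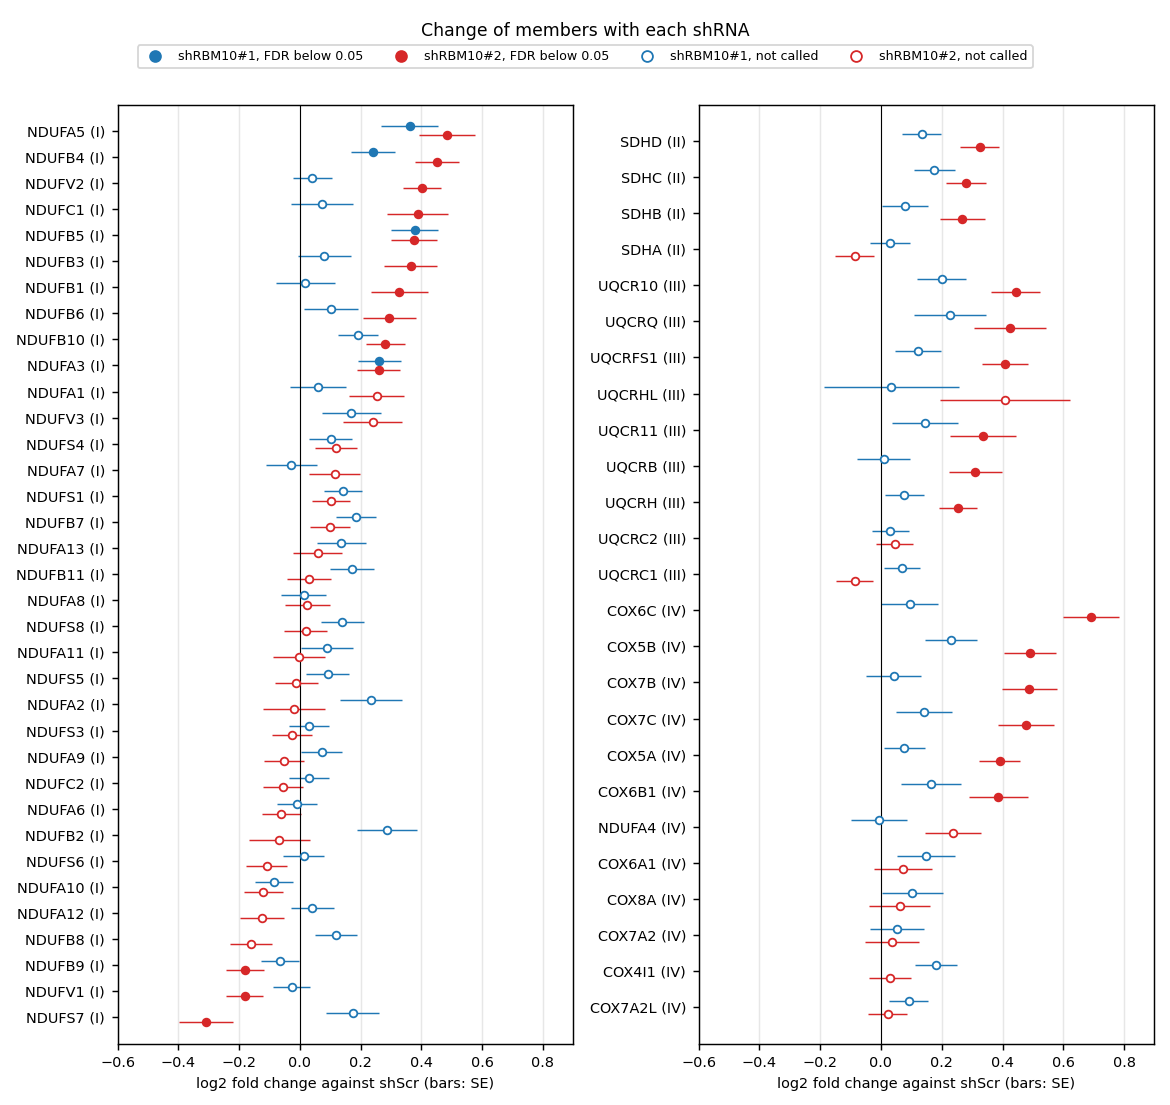
Log2 fold change of the members tested (COX6B2 and 1 other are not drawn) against shScr with shRBM10#1 (blue) and shRBM10#2 (red), with bars of 1 SE, filled where FDR was below 0.05 and ordered within each complex by the shRBM10#2 value. COX6C of complex IV has the largest rise, 0.69, and most filled points belong to shRBM10#2.

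Complex IV held the largest rise. COX6C, a small subunit of the membrane part of the enzyme, measured 118 and 104 CPM in shScr, 107 and 130.4 with shRBM10#1, then 173 and 185 CPM in the shRBM10#2 libraries. Both shRBM10#2 libraries lay above the other 4, and COX6C rose by 0.69 (SE 0.09, FDR = 0.000455 in edgeR), a 1.61-fold level. COX5B, which with COX5A sits on the matrix side of the complex, went from 184 and 154 CPM to 230.0 and 244 CPM, a rise of 0.49 (SE 0.09, FDR = 0.00184 in edgeR). COX7B stood at 121 and 100.3 CPM in shScr and at 148 and 162 CPM with shRBM10#2 (0.49, SE 0.09). For COX7C the values were 175 and 147 against 216 and 233 CPM (0.48, SE 0.09), and for COX5A 107 and 103 against 133 and 142 CPM (0.39, SE 0.07). COX6B1, the common form of COX6B, was the sixth at 0.39 (SE 0.10), which became 0.22 without shScr replicate 2 and lost its call (FDR = 0.0991 in edgeR). In none of these 6 genes did the shRBM10#2 and shScr libraries overlap. The same held for 42 of the 62 members and for 66.6% of all genes tested. The abundant COX8A (318 and 241 against 285 and 298 CPM) and COX4I1 (291 and 260.4 against 279 and 284 CPM) did overlap and were not called. NDUFA4 gave 0.24 (SE 0.09, FDR = 0.0737 in edgeR).

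Among the members of complex III the rises lay in the small and iron-sulfur subunits. UQCR10, a small membrane subunit, measured 69.7 and 63.7 CPM in shScr and 92.8 and 88.7 CPM with shRBM10#2, a rise of 0.44 (SE 0.08, FDR = 0.00225 in edgeR). UQCRFS1, the Rieske iron-sulfur protein that hands electrons to cytochrome c1, went from 133 and 113 CPM to 161 and 164 CPM, a rise of 0.41 (SE 0.08, FDR = 0.00255). UQCRQ, the ubiquinone-binding subunit, spread more in the controls, with 146 and 104 CPM against 162 and 174 CPM, and its rise of 0.42 (SE 0.12, FDR = 0.0203) became 0.20 without shScr replicate 2 and lost its call. UQCR11, UQCRB and UQCRH rose by 0.34, 0.31 and 0.25, calls that were likewise lost without that library (0.15, 0.17 and 0.22). The core proteins UQCRC1 and UQCRC2, the largest nuclear subunits of the complex, had values of -0.09 and 0.04 (SE 0.06 each) and were not called. CYC1, cytochrome c1 of the same complex, lies outside the symbol rule and fell. It went from 422 and 378 CPM in shScr to 291 and 304 CPM with shRBM10#2 (-0.43, SE 0.08, FDR = 0.001955 in edgeR). Without shScr replicate 2 its value was -0.50.

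Complex II showed the anchors and the iron-sulfur subunit apart from SDHA. SDHD measured 73.3 and 72.3 CPM in shScr, 77.6 and 82.1 with shRBM10#1, then 90.4 and 92.0 CPM in the shRBM10#2 libraries, which ordered the 3 conditions without overlap. It rose by 0.33 with shRBM10#2 (SE 0.06, FDR = 0.0035 in edgeR). SDHC rose by 0.28 (SE 0.07) and SDHB by 0.27 (SE 0.07), the latter becoming 0.19 and losing its call without shScr replicate 2. SDHA went from 319 and 306 CPM to 285 and 304 CPM, a value of -0.09 (SE 0.07) that was not called. SDHA shares sequence with the copies SDHAP1, SDHAP2 and SDHAP3, listed at 4.56 to 5.72, 7.59 to 9.26 and 0.58 to 0.81 TPM, between which RSEM could split reads.

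Complex I moved in both directions. Of its 7 nuclear core subunits, which carry the flavin and iron-sulfur centers, NDUFV2 rose and NDUFS7 and NDUFV1 fell, with a median of -0.02 over the 7. NDUFV2, which holds an iron-sulfur cluster next to the flavin, measured 67.2 and 68.9 CPM in shScr, 69.4 and 70.6 with shRBM10#1, then 88.4 and 91.5 CPM in the shRBM10#2 libraries. Replicates agreed closely in all 3 conditions, and the rise was 0.40 (SE 0.06, FDR = 0.00103 in edgeR). NDUFS7, the subunit nearest the ubiquinone site, measured 56.4 and 47.6 CPM in shScr, 59.0 and 58.4 with shRBM10#1, then 39.6 and 44.4 CPM in the shRBM10#2 libraries. It fell by 0.31 (SE 0.09, FDR = 0.0223), and by 0.43 without shScr replicate 2 (FDR = 0.0133). The NDUFS7 call was lost without shScr replicate 1 (-0.18, FDR = 0.192 in edgeR), without shRBM10#2 replicate 1 (-0.23, FDR = 0.24), without shRBM10#2 replicate 2 (-0.39, FDR = 0.0604) and with the length offset (-0.29, FDR = 0.0659). NDUFV1, the flavin-binding partner of NDUFV2, fell by 0.18 (SE 0.06, FDR = 0.0463), a call that was lost without shScr replicate 2 and with the length offset, where the change stayed near its size (-0.20 and -0.18).

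Among the 29 supernumerary subunits of complex I, 9 rose, 1 fell (NDUFB9, by 0.18, a call lost without shScr replicate 2 at -0.22) and 19 were not called, with a median of 0.06. NDUFA5, the member of the complex with the lowest TPM, measured 40.1 and 42.7 CPM in shScr, 47.3 and 58.8 with shRBM10#1, then 57.0 and 58.8 CPM in the shRBM10#2 libraries. Its rise was 0.48 (SE 0.09, FDR = 0.00308 in edgeR), and it was larger, 0.53, without shScr replicate 2. NDUFB4, a membrane-arm subunit, stood at 113 and 105 CPM, 121 and 136 CPM, and 146 and 151 CPM in the 3 conditions, a rise of 0.45 (SE 0.07, FDR = 0.00116). The other 7 were NDUFC1, NDUFB5, NDUFB3, NDUFB1, NDUFB6, NDUFB10 and NDUFA3, with rises of 0.26 to 0.39, 5 of them in the NDUFB series of the membrane arm. Of these, NDUFC1, NDUFB3, NDUFB6 and NDUFA3 lost their call without shScr replicate 2, at 0.28, 0.26, 0.17 and 0.23.

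Of the 29 calls with shRBM10#2, 9 held whichever of the 6 libraries was left out. These genes were COX6C, COX5A, COX5B and COX7B of complex IV, UQCR10 and UQCRFS1 of complex III, and NDUFV2, NDUFB4 and NDUFA5 of complex I, and apart from NDUFA5 each was also called in all 9 other fits tried, which differed in tool, scaling, filter, offset, block or samples. How many of all genes tested held through every omission was not counted. None of the 9 genes met the added criterion of an absolute log2 fold change above 1. The highest FDR among these 9 genes over the 6 omissions was 0.0493, in COX7B.

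**Figure D4:**
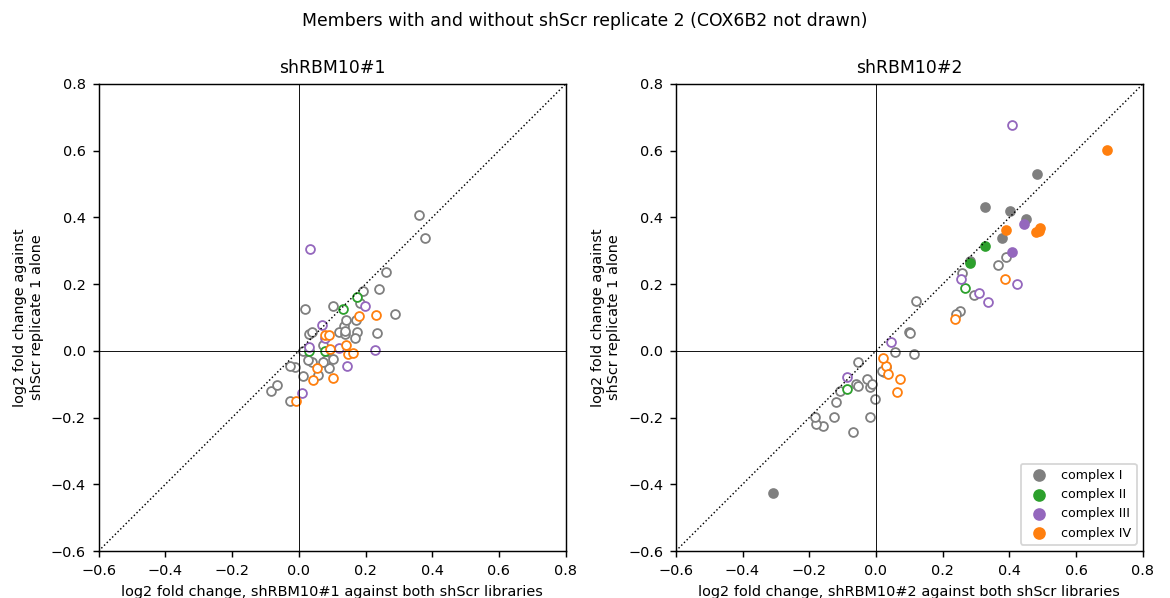
Log2 fold change of the 61 members other than COX6B2 against both shScr libraries (x axis) and against shScr replicate 1 alone (y axis) for each shRNA, colored by complex, filled where FDR was below 0.05 without shScr replicate 2. Most points lie below the dotted line of equal values, and for shRBM10#1 no point is filled (COX6B2, still called, is not drawn).

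With shRBM10#1, which left more RBM10, 4 members rose and 1 fell. The rises made 6.45% of the members against 7.13% of all genes, the fall 1.61% against 6.91%, and 14.0% of all genes were called in both directions, so the members' share was at or below the background with all 6 libraries. NDUFB5, a membrane-arm subunit of complex I, measured 74.4 and 70.4 CPM in shScr and 89.1 and 99.0 CPM with shRBM10#1, a rise of 0.38 (SE 0.08, FDR = 0.0055 in edgeR). NDUFA5 rose by 0.36 (SE 0.09, FDR = 0.0225), NDUFA3 by 0.26 (SE 0.07, FDR = 0.0273) and NDUFB4 by 0.24 (SE 0.07, FDR = 0.0449). All 4 rises are in complex I. With shRBM10#2, against the same shScr libraries, these genes stood at 0.38, 0.48, 0.26 and 0.45 in the same order. The 4 calls with shRBM10#1 were lost without shScr replicate 2 (FDR 0.0625 to 0.244 in edgeR), where the changes were 0.34, 0.41, 0.24 and 0.18. Without shScr replicate 1, 16.1% of members were higher against 4.9% of all genes, above the background. In both directions, members called numbered 11 without shScr replicate 1 (17.7% against 9.29% of all genes), 10 without shRBM10#1 replicate 1 (16.1% against 18.6%) and 2 without shRBM10#1 replicate 2 (3.23% against 8.17%). Leaving out shRBM10#2 replicate 1 or 2 gave 3 each (4.84% against 9.37% and 9.43%). The median change over the 62 members was 0.09 against 0.01 over all genes, with 55 of 62 above 0, and it became 0.02 without shScr replicate 2 and 0.19 without shScr replicate 1.

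The direct comparison of the shRNAs does not use the shScr libraries for its fold changes. At FDR below 0.05, 14 members were higher and 3 lower with shRBM10#2 than with shRBM10#1, or 22.6% against 11.0% of all genes and 4.84% against 14.5%. In both directions 27.4% of the members and 25.5% of all genes were called. The median member stood at 0.01, as did all genes, since complex I leaned the other way (median -0.05) from complex II (0.15), complex III (0.20) and complex IV (0.25). COX6C differed most, by 0.60 (SE 0.09, FDR = 0.000905 in edgeR), followed by COX7B (0.45, SE 0.09) and NDUFV2 (0.36, SE 0.06, FDR = 0.00188). COX7C, NDUFC1, COX5A, NDUFB1, UQCRB, UQCRFS1 and NDUFB3 differed by 0.28 to 0.34.

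The 3 members that were lower with shRBM10#2 are all in complex I. NDUFS7 differed by -0.48 (SE 0.09, FDR = 0.00229 in edgeR). NDUFB2, a small membrane-arm subunit, measured 82.4 and 88.9 CPM in the shRBM10#1 libraries but 67.7 and 66.3 CPM in those of shRBM10#2, while the shScr libraries at 79.4 and 61.1 CPM spanned most of that range (-0.36, SE 0.10, FDR = 0.0201). NDUFB8 measured 127 and 134 CPM against 105 and 110.4 CPM (-0.28, SE 0.07, FDR = 0.0108). Only COX6C and NDUFV2 kept their call whichever library was left out. The share of all genes that kept a call in this way was not counted. With the length offset 5 members were higher and 2 lower, or 8.06% against 9.21% of all genes and 3.23% against 12.9%. The share of higher members thus lay below the background. Leaving out shRBM10#1 replicate 1 gave 9 calls (14.5% against 23% of all genes), shRBM10#2 replicate 1 gave 4 (6.45% against 7.54%) and shRBM10#2 replicate 2 gave 3 (4.84% against 6.49%), each share below that of all genes.

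When the 4 KD libraries were pooled against shScr, 0 of 62 members were called by edgeR's quasi-likelihood test, against 1.62% of all genes. Of the 62 members, 14 had an unadjusted p below 0.05 in edgeR, against 2450 of the 14217 genes tested. DESeq2 called 4 members (6.45% against 5.05% of all genes). A fit with a coefficient for each condition, averaging the KD conditions, called 18 (29% against 18.4%). The study's criteria ask in addition for an absolute log2 fold change above 1. Under these, COX6B2 was the single member called with shRBM10#1 and with shRBM10#2 (1.88% and 1.30% of all genes). Between the shRNAs edgeR called 0 members against 1.19% of genes. At any fold, 29 of the 62 members had an unadjusted p below 0.05 between the shRNAs, against 5420 of the 14217 genes tested.

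COX6B2 was the single tissue-type form of complex IV to pass the filter. It counted 59 and 34 reads in shScr, 11 and 5 with shRBM10#1, and 26 and 21 with shRBM10#2. The 3 pairs did not overlap, and the shRBM10#1 pair was lowest. COX6B2 fell by 2.57 with shRBM10#1 (SE 0.48, FDR = 0.00344 in edgeR), to 16.8% of shScr, and by 1.19 with shRBM10#2 (SE 0.40, FDR = 0.0449), the second call being lost when any of 3 libraries was left out. Its order did not follow the remaining RBM10. At 0.14 to 1.87 TPM it lay far below COX6B1, at 575 to 859 TPM. Of the other tissue-type forms, the lung-type COX4I2 had 4 counts in a single library, the muscle-type COX7A1 had 0 to 4 counts, and COX6A2 (muscle), COX7B2 and COX8C (testis) had 0 counts in all 6 libraries, as did the complex III copy UQCRBP1. These 6 members did not pass the filter and were not tested. UQCRHL, whose sequence is close to UQCRH, counted 65 to 133 reads and was not called (0.41, SE 0.21 with shRBM10#2), and reads could be split between the 2 loci.

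Promoters were read for the members because several rose together. The 250 bases before the start were found for 55 of the 68 members in RefSeq's GRCh38.p14 annotation and searched on both strands for the letters GCGCANGCG (NRF1), CCGGAAGT (GABPA) and AAGATGGCG (YY1), factors known to bind at nuclear respiratory genes. The NRF1 letters can match both strands at one place, which counts as overlapping matches. They occurred in 14 of 55 members (25.5%), in 12.8% of promoters of all genes tested and in 6.56% of all promoters. The GABPA letters occurred in 8 members (14.5%), 6.92% and 3.42%, and the YY1 letters in 0 members, 1.04% and 0.652%. Of the members that rose with shRBM10#2, 5 of 21 held the NRF1 letters, against 8 of 31 other members tested, and 5 of 21 held the GABPA letters, against 3 of 31. No test was made, and a match of letters is not a site. The windows of 1 risen member per complex that holds a match are printed 5′ to 3′ in the gene's direction, with matches in capitals.

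NDUFB4 (chr3:120596086-120596335, plus strand): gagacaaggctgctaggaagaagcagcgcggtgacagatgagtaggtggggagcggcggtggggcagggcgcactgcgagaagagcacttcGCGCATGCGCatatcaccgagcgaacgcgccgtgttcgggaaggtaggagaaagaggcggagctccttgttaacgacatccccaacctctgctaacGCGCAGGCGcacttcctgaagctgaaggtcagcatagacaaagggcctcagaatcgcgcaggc
SDHD (chr11:112086623-112086872, plus strand): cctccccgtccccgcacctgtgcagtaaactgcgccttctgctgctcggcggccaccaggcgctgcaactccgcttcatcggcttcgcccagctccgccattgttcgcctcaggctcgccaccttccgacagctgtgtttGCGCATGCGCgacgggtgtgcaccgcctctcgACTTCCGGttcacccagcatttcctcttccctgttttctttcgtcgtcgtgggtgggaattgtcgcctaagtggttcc
UQCRFS1 (chr19:29213152-29213401, minus strand): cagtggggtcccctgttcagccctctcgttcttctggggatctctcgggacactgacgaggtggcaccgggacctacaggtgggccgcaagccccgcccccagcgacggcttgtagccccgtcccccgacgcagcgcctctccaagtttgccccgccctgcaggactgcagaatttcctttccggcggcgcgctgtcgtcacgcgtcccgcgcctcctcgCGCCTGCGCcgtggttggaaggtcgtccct
COX5B (chr2:97645812-97646061, plus strand): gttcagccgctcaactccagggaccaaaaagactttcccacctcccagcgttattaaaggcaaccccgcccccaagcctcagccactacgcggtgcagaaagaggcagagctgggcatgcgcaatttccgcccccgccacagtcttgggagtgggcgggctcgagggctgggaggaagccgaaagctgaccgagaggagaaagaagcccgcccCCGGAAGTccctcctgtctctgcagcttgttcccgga

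One member is a neighbor of the targeted gene. NDUFB11, a membrane-arm subunit of complex I on the minus strand of chromosome X, overlaps at its start with the start of RBM10 on the plus strand. It measured 78.3 and 69.9 CPM in shScr, 80.5 and 86.3 with shRBM10#1, then 76.6 and 74.7 CPM in the shRBM10#2 libraries. The shRBM10#2 libraries lay inside the shScr range, and the values of 0.17 (SE 0.07, FDR = 0.144 in edgeR) and 0.03 (SE 0.07, FDR = 0.798) were not called. Whether counting used strand is not given in the sources used here, so reads of the overlap cannot be assigned with certainty. The same holds for NDUFS6 with MRPL36, NDUFC1 with NAA15 and NDUFA3 with TFPT, whose records overlap expressed neighbors.

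Other mitochondrial genes were counted from lists. With all 6 libraries, 12.0% of all genes were higher and 13.9% lower with shRBM10#2, and 7.13% and 6.91% with shRBM10#1. Counts from all 6 libraries are to be read against these shares. Fits without shScr replicate 2 leave 1 shScr library, so medians are given for them here and in the next paragraph in place of counts. Over all genes the median of these fits was 0.01 with either shRNA. Of 19 subunits of ATP synthase (complex V), 9 rose and 10 were not called with shRBM10#2, with a median of 0.23, and 2 rose and 1 fell with shRBM10#1. Without shScr replicate 2 the median was 0.14 with shRBM10#2 and 0.05 with shRBM10#1. The rises with shRBM10#2 included C14orf2, a small subunit, at 61.8 and 52.8 CPM in shScr and 88.4 and 94.4 CPM with shRBM10#2 (0.67, SE 0.08, FDR = 0.000239 in edgeR). ATP5C1, the central stalk subunit, fell with shRBM10#1 from 136 and 133 CPM to 83.2 and 82.9 CPM (-0.69, SE 0.06, FDR = 2.55e-05) and stood at 168 and 172 CPM with shRBM10#2, a difference of 1.03 between the shRNAs. Of 7 electron transfer genes outside the symbol rule, 2 rose and 2 fell with shRBM10#2. NDUFAB1, the acyl carrier protein of complex I, rose by 0.42, and CYC1, cytochrome c1 of complex III, fell by 0.43. The median of the 7 genes, 0.04, became -0.04 without shScr replicate 2. Of 49 assembly factors of complexes I to IV, 8 rose and 6 fell with shRBM10#2. Their median of 0.09 became 0.03 without shScr replicate 2. ECSIT, an assembly factor of complex I, rose with shRBM10#1 by 0.48 and differed by -0.75 between the shRNAs.

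Among 77 genes of the mitochondrial ribosome, 20 rose and 4 fell with shRBM10#2 (median 0.10), and 8 rose and 1 fell with shRBM10#1 (median 0.07). Without shScr replicate 2 the medians became 0.02 and 0.04. A list of 21 citric acid cycle genes outside complex II also held cytosolic enzymes, MDH1 and IDH1 among them. Of these 21 genes, 3 rose with shRBM10#2, among them MDH1 (0.52, SE 0.08) and SUCLG1 (0.40, SE 0.07), and 3 fell. Their median was 0.08, and 0.09 without shScr replicate 2. Of 16 tested regulators of mitochondrial biogenesis, 4 fell with shRBM10#2 and 12 were not called. With the length offset 2 fell. The median of the 16 genes was -0.01, and 0.02 without shScr replicate 2. TFB2M, a transcription factor of mitochondrial DNA, fell by 0.24 (SE 0.07), PPRC1, a coactivator, by 0.30 (SE 0.09) and ESRRA, a nuclear receptor, by 0.20 (SE 0.06). Without shScr replicate 2 the calls of PPRC1 (-0.30, FDR = 0.0975 in edgeR) and ESRRA (-0.24, FDR = 0.0522) were lost.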

How the data were processed

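RNA-Seq of 6 PC-9 libraries, 2 each of shScr, shRBM10#1 and shRBM10#2, was analyzed from the deposited RSEM isoform tables. The authors' processing notes name STAR 2.4, RSEM 1.2.29, edgeR and hg19. The deposited columns hold expected counts, TPM and FPKM per RefSeq isoform, the percent of each gene given to an isoform, and transcript lengths in nt. The study's methods name parental PC-9 as the control where the labels give shScr, and the labels were followed. Expected counts were summed by gene symbol and rounded, and TPM was summed by gene. Members and gene lists were chosen with earlier results of these data known.

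Genes were filtered by filterByExpr, scaled by TMM and tested by edgeR 4.0.16 (quasi-likelihood, R 4.3.3) with all 6 libraries in the fit and Benjamini-Hochberg adjustment over 14217 genes, calling FDR below 0.05. CPM values are on the TMM scale, and SE was the log2 fold change divided by the root of F. Named genes were, per comparison, up to 10 members that rose and 10 that fell with the largest change, the 2 highest and 2 lowest of each complex in shScr TPM, members that failed the filter, RBM10, and up to 3 genes per other list by FDR. Other members are named where a count needed it, after their values were seen. Alternatives were DESeq2 1.42.0, limma 3.58.1 on log2(TPM + 1), other filters, an effective-length offset, the replicate number as a block, and each library left out. Isoform usage and 1 member are not reported here. The scripts were tested on simulated data. Depth was 31953729 to 37557507 expected counts per library, and sampling noise did not account for the replicates' differences (chi-square per degree of freedom 3.225 to 12.24).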

Additional observations from a re-analysis of the deposited data

Results flagged for a closer look

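The 17 results here are differences between the shRNAs that passed the test of the difference itself (edgeR, FDR below 0.05), given as log2 values of shRBM10#2 against shRBM10#1. They make 27.4% of the 62 members tested, near the 25.5% of all genes called in the same comparison. In complex IV these were COX6C at 0.60, COX7B at 0.45, COX7C at 0.34, COX5A at 0.31 and COX5B at 0.26. In complex III they were UQCRB at 0.30, UQCRFS1 at 0.29 and UQCR10 at 0.24, and in complex II SDHD at 0.19. Complex I had both directions, with NDUFV2 at 0.36, NDUFC1 at 0.32, NDUFB1 at 0.31, NDUFB3 at 0.28 and NDUFB4 at 0.21 higher, and NDUFB8 at -0.28, NDUFB2 at -0.36 and NDUFS7 at -0.48 lower. RBM10 itself was lower with shRBM10#2 by 1.11 on the log2 scale, and whether its level or the shRNA sequence goes with these differences cannot be told apart with 1 shRNA per level.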

How the results depend on the processing

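Of 478 alternative values over the 32 named gene and comparison pairs, 378 kept their direction and call, 100 kept the direction but lost the call, and none reversed. The 32 pairs were named because they were called with the largest changes. The alternatives reuse the same libraries, so this count is no independent check. Members called were 5 with shRBM10#1, 29 with shRBM10#2, 17 between the shRNAs and 0 pooled. Their shares were 8.06%, 46.8%, 27.4% and 0%, against 14.0%, 25.9%, 25.5% and 1.62% of all genes. An added fold criterion gave 1, 1 and 0, and limma on TPM 1, 18 and 10. The limma shares were 1.61%, 29% and 16.1%, against 6.75%, 11.6% and 8.89% of all genes. The length offset gave 3 with shRBM10#1 (4.84% against 12% of all genes) and 7 between the shRNAs (11.3% against 22.1%). With the replicate block added these were 3 (4.84% against 9.25%) and 6 (9.68% against 17.8%). For shRBM10#1, no filter gave 9 (14.5% against 13.5% of all genes) and a fit of both conditions alone 3 (4.84% against 9.42%). Pooled, DESeq2 called 4 and a coefficient per condition 18. In FPKM the summed shRBM10#2 level over the shScr mean was 1.13, 1.15, 1.25 and 1.31 for complexes I to IV. In each complex shScr replicate 2 had the lowest FPKM of the 6 libraries, which lowers that mean. Complex I held 7854 and 6133 FPKM in shScr and 7889 and 7892 with shRBM10#2. Complex IV held 6883 and 4721 FPKM in shScr and 7561 and 7627 with shRBM10#2. The cause of these changes was not tested.

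Leaving out each library in turn gave 1 to 11, 9 to 31, 3 to 21 and, pooled, 0 to 3 members called. Each of these fits leaves a single library in a condition, and the number of all genes called changed between them as well. Apart from the 11 with shRBM10#1, the lowest and highest member counts came from fits that called the fewest and most genes. The ranges of calls thus largely follow the background and do not show a change in the members' share. Median member changes ranged from 0.0184 to 0.189, 0.0557 to 0.208, -0.0208 to 0.0572 and 0.031 to 0.203.

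Replicate numbers did not pair the libraries (correlations of replicate differences -0.0038, -0.019 and -0.014). The replicate block gave 4, 27, 14 and 0 members called. These were 6.45%, 43.5%, 22.6% and 0%, against 12.3%, 22.6%, 22.3% and 0.366% of all genes. With 2 libraries per condition, and shScr libraries that differ by more than the median member change, small changes rest on few degrees of freedom.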
